A study of Mus musculus with 15 samples.

Results

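The 10 genes followed here run the first gap phase of the cell cycle, and they were read in CT26 cells, a mouse colon carcinoma line: the D cyclins Ccnd1, Ccnd2 and Ccnd3, the E cyclins Ccne1 and Ccne2, the cyclin-dependent kinases (CDKs) Cdk2, Cdk4 and Cdk6, and the INK4 inhibitors Cdkn2a and Cdkn2b. They were chosen by gene symbol as 10 of the 34432 genes listed in both tables of normalized counts. The rule itself used no measured value, but the members were chosen with earlier results of these data known. Of the 10, 8 were read in every library and 2, Cdkn2a and Cdkn2b, had 0 reads in all 15 libraries.

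RNA was sequenced in 2 experiments on this line, to ask which genes respond to loss or inhibition of PRMT1, the main enzyme that places asymmetric dimethyl marks on arginine. In the first, 3 control-hairpin libraries (shControl) stood against 3 from cells carrying a doxycycline-inducible hairpin to Prmt1 (shPrmt1), which were given doxycycline for 3 days. The labels do not state whether the shControl cells received doxycycline. In the second, 3 libraries each came from cells given vehicle, MS023 or GSK3368715, both inhibitors of type I arginine methyltransferases, at 6 µM for 48 h. A single hairpin line and a single cell line limit what the groups stand for. The values are reads per gene divided by a size factor of the library, computed separately for each experiment, so levels are compared only within an experiment. In bulk RNA, a change in the share of cells in a given cycle phase and a change in the RNA of each cell cannot be told apart.

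As background, mitogens raise the D cyclins, which bind CDK4 and CDK6 and start the phosphorylation of the retinoblastoma protein. That releases E2F factors, which switch on the E cyclins; cyclin E with CDK2 completes the phosphorylation and commits the cell to DNA replication. The INK4 proteins bind CDK4 and CDK6 and keep D cyclins off them. Cdkn2a encodes INK4A and, from another first exon, ARF, which holds MDM2 in check and so stabilizes p53, and the Cdkn2a and Cdkn2b region is often lost or silenced in tumours.

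Promoters of 7 of the 10 genes were in the RefSeq table for GRCm38.p6, each as 300 bases, from 250 before to 50 after a transcription start, 5′ to 3′ on the strand of the gene, and Ccnd1, Ccnd2 and Ccne2 had no entry. The windows of 4 genes are shown: Cdk4 and Cdk2 because they are the kinases whose windows hold repeated motif matches, and Cdkn2a (the upstream start) and Cdkn2b because neither gene was read. The downstream Cdkn2a start is not shown. Which Cdkn2a start gives INK4A and which gives ARF is not stated here, so the window should not be taken as that of INK4A. Capitals mark CACGTG, the E-box bound by MYC with MAX, and the E2F site searched as TTCCCGC and as its forms TTGGCGC and also TTCGCGC, on both strands. The minus-strand form of the first E2F site reads GCGGGAA, and none of the marked matches overlap.
Cdk4, chr10:127063285-127063584, plus strand: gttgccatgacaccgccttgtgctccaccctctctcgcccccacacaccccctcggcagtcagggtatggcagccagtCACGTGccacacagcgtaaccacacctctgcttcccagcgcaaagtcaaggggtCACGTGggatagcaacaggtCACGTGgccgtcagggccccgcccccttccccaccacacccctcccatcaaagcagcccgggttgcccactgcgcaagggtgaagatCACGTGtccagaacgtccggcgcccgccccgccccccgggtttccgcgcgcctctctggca
Cdk2, chr10:128705002-128705301, minus strand: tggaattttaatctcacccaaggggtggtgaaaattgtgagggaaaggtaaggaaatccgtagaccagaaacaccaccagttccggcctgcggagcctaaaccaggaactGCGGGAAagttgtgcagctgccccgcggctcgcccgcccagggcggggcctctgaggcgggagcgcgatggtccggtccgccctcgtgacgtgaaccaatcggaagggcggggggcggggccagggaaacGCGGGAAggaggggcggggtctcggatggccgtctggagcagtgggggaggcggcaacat
Cdkn2a, chr4:89294570-89294869, minus strand: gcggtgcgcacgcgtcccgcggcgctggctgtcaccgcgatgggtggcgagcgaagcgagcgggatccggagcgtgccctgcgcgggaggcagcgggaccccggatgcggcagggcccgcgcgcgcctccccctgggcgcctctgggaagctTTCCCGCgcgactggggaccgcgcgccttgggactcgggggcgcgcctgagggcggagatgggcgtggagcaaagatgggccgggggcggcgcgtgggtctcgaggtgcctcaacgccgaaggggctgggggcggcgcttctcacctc
Cdkn2b, chr4:89310983-89311282, minus strand: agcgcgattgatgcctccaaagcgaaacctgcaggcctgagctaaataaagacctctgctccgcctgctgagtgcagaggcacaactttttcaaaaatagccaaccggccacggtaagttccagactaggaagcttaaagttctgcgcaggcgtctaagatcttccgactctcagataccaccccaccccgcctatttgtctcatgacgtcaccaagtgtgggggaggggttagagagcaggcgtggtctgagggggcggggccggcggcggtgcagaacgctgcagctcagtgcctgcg

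The Cdk4 window holds 4 E-boxes, at -172, -118, -98 and -11 from the start. Of all 32851 promoter windows in the table, 7.15% held at least 1 CACGTG and 8 (0.0244%) held 4 or more. The Cdk6 window has 1 E-box at -220. The Cdk2 window has the E2F letters at -140 and -10, where 8.07% of all windows held 1 or more such matches and 0.871% held 2 or more. The upstream Cdkn2a window has 1 E2F match at -98, and Cdkn2b, the downstream Cdkn2a start, Ccnd3 and Ccne1 had none of either kind. The GC box CCGCCC, bound by SP factors, occurred in 8 of the 9 member windows and in 35.7% of all windows. These matches describe the letters of the windows only.

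The library totals ran from 17284091 to 29233738 reads on genes in the knockdown experiment and from 40119305 to 93697833 in the inhibitor experiment. The targeted gene Prmt1 stood at 5601, 5717 and 5620 normalized counts with shControl and at 669, 761 and 683 with shPrmt1. Markers of colon epithelium were mostly absent from this line: Epcam was at 0 in every library, Cdh1, Vil1, Krt8, Krt19 and Cdx2 stayed under 1 RPM (reads of the gene per 1000000 reads on genes), and Krt18 (14.6 to 28.4) and Krt20 (5.13 to 9.26) were read. Of 5 mesenchymal markers, Vim (2810 to 3490 RPM), Col1a2, Col1a1 and Pdgfrb were read in every library and Dcn stayed under 1 RPM (0 to 0.672), with a summed level of 4270 to 5820 RPM, and the summed levels of 5 leukocyte markers (0 to 0.41) and 3 endothelial markers (0.116 to 0.624) were under 1 RPM in every library.

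Cyclin D1 and its partner kinase CDK4 had the highest levels of the 8 genes read. To set genes beside each other, normalized counts were divided by the merged exon length. In shControl cells Ccnd1 stood at 4229 ± 129 (SD, n = 3) normalized counts per kb, followed by Cdk4 at 2791 ± 123 and Ccnd2 at 1171 ± 56.9. The ranges of these 3 genes did not touch each other. Below them Ccne2 (438 ± 40.8), Cdk6 (431.5 ± 21.2) and Ccne1 (410 ± 17.4) overlapped their neighbours, and so did Cdk2 (223 ± 10.8) and Ccnd3 (202.5 ± 17.4), which had the lowest levels per kb. In vehicle-treated cells, on the separate scale of that experiment, the order began the same way, with Ccnd1 at 10344 ± 532, Cdk4 at 7983 ± 499 and Ccnd2 at 3495 ± 188 normalized counts per kb. Cdk6 (971 ± 177), Ccne2 (910 ± 185) and Ccne1 (742 ± 105) came next, with Cdk6 overlapping Ccne2 and Ccne2 overlapping Ccne1, and Ccnd3 (615.5 ± 32.1) and Cdk2 (528 ± 26.1) came last. Part of this order rests on the length used. Per kb of the longest coding transcript, which is 2.11 kb for Ccnd3 against 8.78 kb of merged exons, Ccnd3 came next after Ccnd2 in both control groups (841 ± 72.3 in shControl and 2556 ± 133 in vehicle cells). By that length Cdk4 overlapped Ccnd1 in the vehicle, MS023 and GSK3368715 groups.

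**Figure D1:**
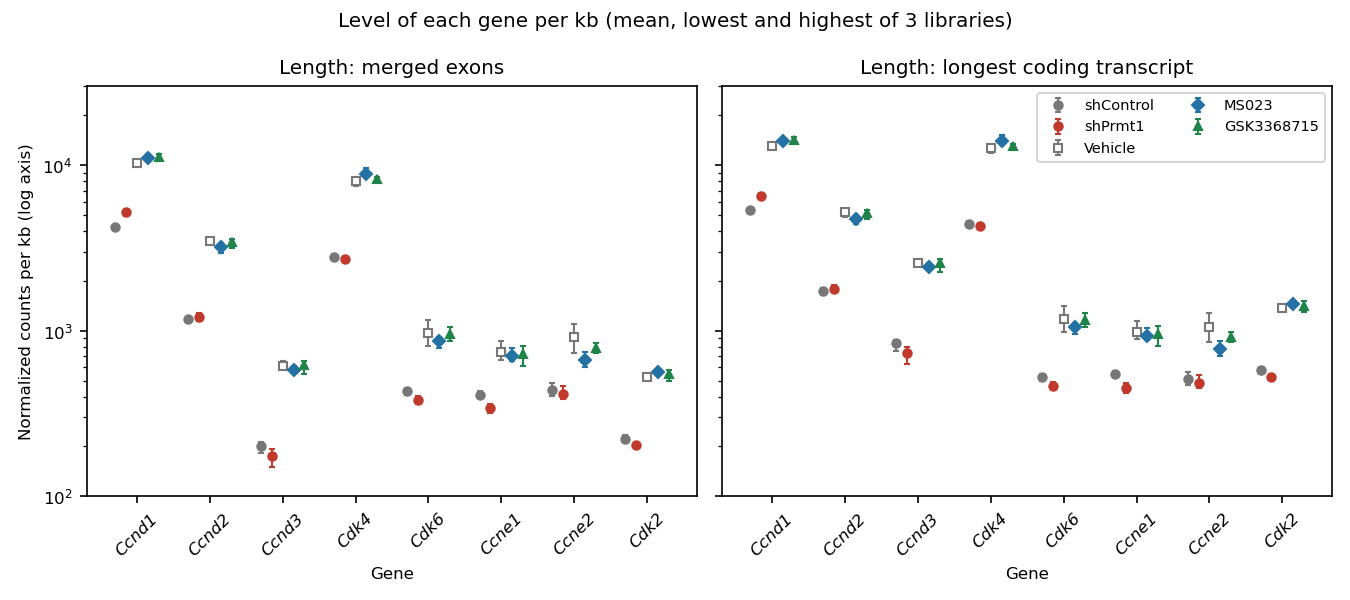
Normalized counts per kb of the 8 genes that were read, on a log axis, by group, with length taken as the merged exons (left) or the longest coding transcript (right); symbols are means of 3 libraries and bars run from the lowest to the highest library. Ccnd1 and Cdk4 lie above the other genes in every group, and Ccnd3 moves up when the shorter length is used; the 2 experiments were normalized separately.

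The INK4 pair had no reads in control and treated cells alike, a trait of the line and not a response to any treatment. Cdkn2a (chr4:89274471-89294653, minus strand, mm10) and Cdkn2b (chr4:89306299-89311039, minus strand) had 0 reads in each of the 6 knockdown and 9 inhibitor libraries, which together held 680807140 reads on genes. A count of 0 allows up to 3 reads, or 0.103 to 0.174 RPM in a knockdown library, 0.032 to 0.0748 in an inhibitor library and 0.00441 over all 15. Having no read at all is not rare, since 4687 of 21726 protein-coding genes listed (21.6%) had none. The contrast with the nearest active gene was large. Mtap, a methionine salvage enzyme whose gene ends 93.4 kb from Cdkn2a, had between 184.4 and 230.4 RPM in every library. On the same side Klhl9, an adaptor of a ubiquitin ligase, averaged 86.1 RPM in the knockdown and 77.3 in the inhibitor libraries at 552 kb, and Focad averaged 34.9 and 45.4. On the other side, no gene in the tables within 1 Mb passed 8 reads over all 15 libraries: Dmrta1, 368.4 kb away, had 1 read and Zfp352 had 7. Of the 53 genes of the 1 Mb flanks and the pair that are in the tables, 30 had no read, many of them type I interferon genes, and Ifnb1 had 4 reads in the knockdown and 133 in the inhibitor libraries. RNA counts cannot tell a missing gene from one that is not transcribed, and DNA was not analysed here.

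**Figure D2:**
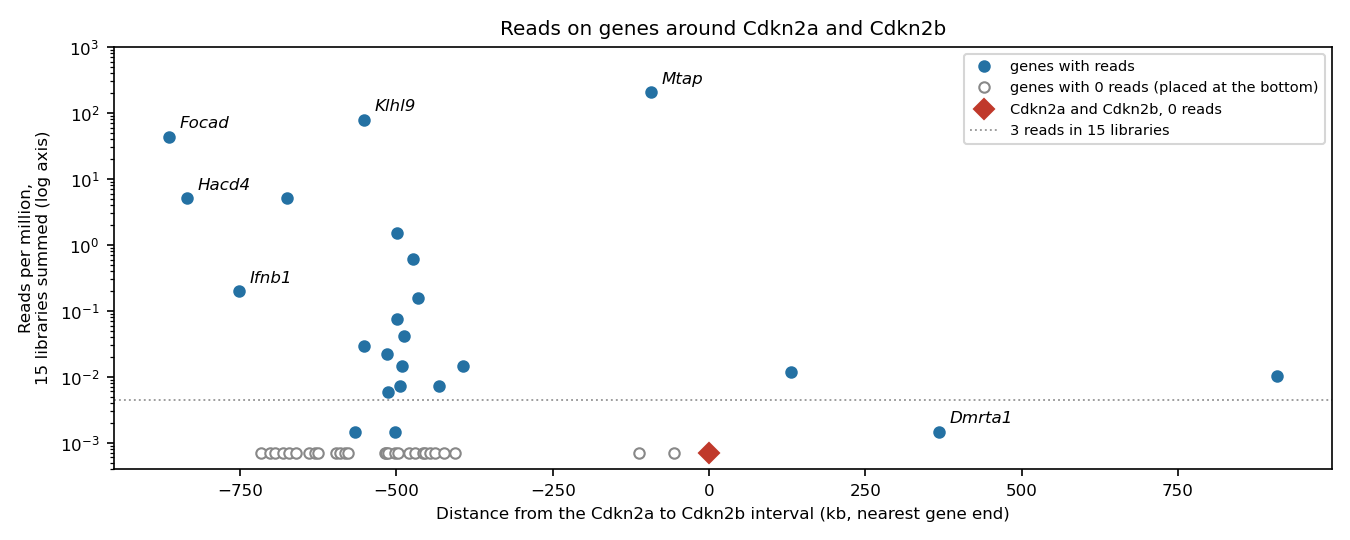
RPM summed over 15 libraries, on a log axis, for each gene in the tables within 1 Mb of the Cdkn2a to Cdkn2b interval, against its distance from that interval in kb; open symbols and the red diamond at the bottom are genes with 0 reads and the dotted line is 3 reads. Cdkn2a and Cdkn2b lie at 0, 93.4 kb from Mtap.

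Other CDK inhibitors were read. Cdkn1a, the p53 target p21, averaged 155.5 RPM in shControl cells (148.4 to 161.1 over the 3 libraries). Cdkn2d and Cdkn2c, the other INK4 genes, averaged 54.5 and 36.9, and Cdkn1b (p27) averaged 49.9. Cdkn1c (p57) had 0 reads in the knockdown libraries, 5 with vehicle, 2 with MS023 and 1 with GSK3368715.

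Cyclin D1 rose in cells depleted of Prmt1. The 3 shControl libraries held 20220, 19213 and 20306 normalized counts of Ccnd1 (chr7:144929931-144939925, minus strand), and the 3 shPrmt1 libraries 25325, 23241 and 24650. Every shPrmt1 library lay above every shControl library. The mean went from 19913 ± 608 to 24405 ± 1064, an increase of 22.5% (log2 fold change 0.29, standard error 0.06, limma, adjusted p = 0.0117 over 11485 genes by Benjamini-Hochberg). Ccnd1 was the only 1 of the 8 members tested that limma called at an adjusted p under 0.05, where 14.7% of all genes tested were called and 7.5% were called higher. The call was lost without any 1 of the shControl libraries, with a log2 fold change of 0.30, 0.27 or 0.31 and an adjusted p of 0.053, 0.0553 or 0.052. LTO1, which shares 1100 bp of exon with Ccnd1 on the opposite strand, held 0.948% of the Ccnd1 counts and changed by 0.26 (adjusted p = 0.426).

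The other D cyclins did not pass the test. Ccnd2 (chr6:127125162-127152193, minus strand) had 11438, 10417 and 11207 normalized counts in shControl and 11255, 10772 and 11972 in shPrmt1 cells, and the ranges overlapped (log2 fold change 0.04, 95% interval -0.10 to 0.19). Ccnd3 (chr17:47505051-47599691, plus strand) had 1867, 1600 and 1863 against 1630, 1328 and 1686, again overlapping (-0.20, interval -0.45 to 0.04). Its pseudogene Ccnd3-ps, 96.3% identical over the aligned part, had 2 reads in all knockdown libraries. Bysl, a ribosome biogenesis gene on the opposite strand, shares 361 bp of exon with Ccnd3. It held 77.0% of the Ccnd3 counts and changed by -0.16 (adjusted p = 0.327 from limma). The part of Bysl in the Ccnd3 value was not tested.

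A further 3 members lay lower in every shPrmt1 library than in any shControl library, without passing the test. Ccne1 (chr7:38097984-38107534, minus strand) had 1075, 1055 and 1143 normalized counts in shControl and 908, 846 and 967 in shPrmt1 cells, a difference of -16.9% that stood just outside the threshold (log2 fold change -0.27, standard error 0.08, adjusted p = 0.0523 from limma). It was called by DESeq2 (adjusted p = 0.0296) and not by edgeR (0.0532) on the recovered reads. Cdk6 (chr5:3341485-3531008, plus strand) had 6346, 6008 and 5755 against 5392, 5617 and 5068 (-0.17, adjusted p = 0.112), and Cdk2 (chr10:128697939-128705031, minus strand) had 1452, 1318 and 1399 against 1249, 1236 and 1299 (-0.14, adjusted p = 0.203). With Ccnd1, 4 of the 8 members did not overlap between the groups, where 38.0% of all genes tested did not, 18.9% with shPrmt1 lower. A limma fit with the replicate number as a block also called Ccne1, Ccnd3 and Cdk6 lower (adjusted p = 0.0237, 0.0459 and 0.0483). In that fit 23.3% of all genes tested were called. Cdk4 (chr10:127063534-127067920, plus strand) had 8647, 9111 and 9441 against 8418, 8755 and 9122, and Ccne2 (chr4:11191351-11204779, plus strand) had 1493, 1689 and 1412 against 1358, 1629 and 1365. Both overlapped, with intervals of -0.18 to 0.09 for Cdk4 and -0.30 to 0.15 for Ccne2.

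**Figure D3:**
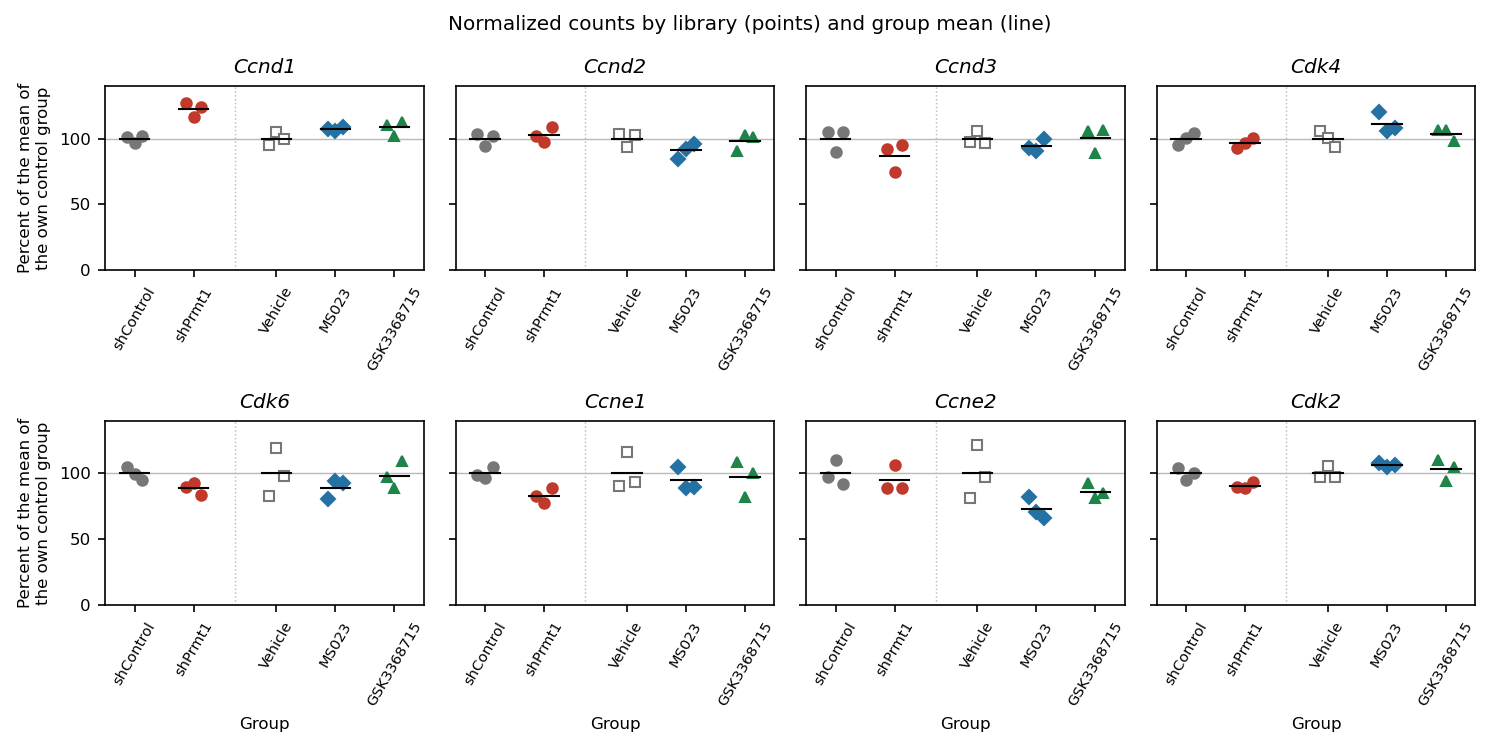
Normalized counts of each gene by library (points) and group mean (line), as a percent of the mean of the control group of its own experiment. The 3 shPrmt1 libraries lie above shControl for Ccnd1 and below it for Ccne1, Cdk6 and Cdk2; for Ccne2 the MS023 libraries lie low and the vehicle libraries are spread widely.

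Under MS023 cyclin E2 fell. Ccne2 had 2575, 3859 and 3105 normalized counts in the vehicle libraries and 2609, 2235 and 2110 in the MS023 libraries. The groups overlapped, since the highest MS023 library lay above the lowest vehicle library. The mean was 3180 ± 645 with vehicle and 2318 ± 260 with MS023, a fitted ratio to vehicle of 0.736 (log2 fold change -0.44, standard error 0.13, adjusted p = 0.0284 from limma over 13014 genes). Ccne2 was the only 1 of 8 members called, where 27.9% of all genes tested were called and 14.1% were called lower. Without vehicle library 2, the library with the most reads of its group (73450043), the change was -0.29 and the call was lost (adjusted p = 0.0676). The call was also lost without vehicle 3 (-0.45, adjusted p = 0.0678), MS023 2 (-0.42, 0.0858) or MS023 3 (-0.38, 0.102). Ints8, a subunit of the Integrator complex that shares 609 bp of exon with Ccne2 on the opposite strand and has 158% of its counts, was called higher with MS023 (0.30, adjusted p = 0.0292). Whether the counting used strand is not given in the sources used here, and the part of Ints8 in the Ccne2 value was not tested.

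None of the other 7 members passed the test under MS023. Cdk4 had 27441, 26148 and 24221 normalized counts with vehicle and 31182, 27453 and 27960 with MS023, so that every MS023 library was above vehicle, by 11.3% in the fit (log2 fold change 0.15, interval 0.0049 to 0.30, adjusted p = 0.114 from limma). Tspan31, which shares 641 bp of exon with Cdk4 on the opposite strand at 36.6% of its counts, changed by 0.16 (adjusted p = 0.0521). Ccnd1 had 46307, 51308 and 48511 with vehicle and 52221, 51505 and 52930 with MS023, which again did not overlap (0.10, interval -0.02 to 0.23, adjusted p = 0.212). These 2 members of 8 stood apart from vehicle, both higher, where the groups did not overlap in 44.5% of all genes tested and MS023 was the higher group in 22.4%. Bysl, which shares 361 bp of exon with Ccnd3 at 42.6% of its counts, was called lower with MS023 (-0.30, adjusted p = 0.0173 from limma). Ccnd2 (-0.14), Ccnd3 (-0.08), Ccne1 (-0.07), Cdk6 (-0.15) and Cdk2 (0.09) overlapped with vehicle, and each interval included 0. The Cdk6 value was -0.28 without vehicle library 1, -0.018 without vehicle library 2 and -0.08 without MS023 library 1. Vehicle library 2 was the highest of the 3 vehicle libraries for Ccne1 (2295 normalized counts against 1782 and 1848) and for Cdk6 (16200 against 11272 and 13266), as it was for Ccne2.

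With GSK3368715 limma called 0 of 8 members, where 9.64% of all genes tested were called. None of the 8 had an unadjusted p under 0.05, against 26.1% of all genes. On the recovered reads edgeR and DESeq2 called 0 as well, where they called 9.54% and 13.8% of all genes. In 0 of 8 did the groups separate, against 27.7% of all genes. Ccne2 had 2939, 2575 and 2705 normalized counts, for a log2 fold change of -0.20 (interval -0.49 to 0.09, adjusted p = 0.378, limma), which became -0.34 without vehicle library 1 and -0.048 without vehicle library 2. Ccnd1 had 53846, 49770 and 54946 (0.12, interval -0.0083 to 0.24, adjusted p = 0.223). For the other 6 members the fitted change lay between -0.04 and 0.05. The median absolute change of the 8 was 0.04, against 0.13 for all genes tested. In the MS023 comparison these medians were 0.12 and 0.18, and in the knockdown 0.16 and 0.17. The MS023 and GSK3368715 comparisons share the vehicle libraries.

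The inhibitors were also set against each other at the same dose and time, as 1 pair of compounds. None of the 8 members differed by limma at an adjusted p under 0.05, where 0.515% of all genes tested did, and 0 had an unadjusted p under 0.05, against 13.2% of all genes. By edgeR and by DESeq2 the count was 0 too, where they called 0.53% and 2.8% of all genes. For 0 of 8 members were the groups apart, against 21.4% of all genes. Ccne2 was higher with GSK3368715 than with MS023 by 0.24 (interval -0.04 to 0.53, adjusted p = 0.467 from limma), Cdk6 by 0.14 (-0.13 to 0.41), and Cdk4 was lower by -0.10 (-0.25 to 0.05). For Ccnd1 the difference was 0.02 (-0.11 to 0.14). These intervals leave room for a Ccne2 level up to 44.7% higher with GSK3368715, so the data do not show that the compounds act alike on it.

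**Figure D4:**
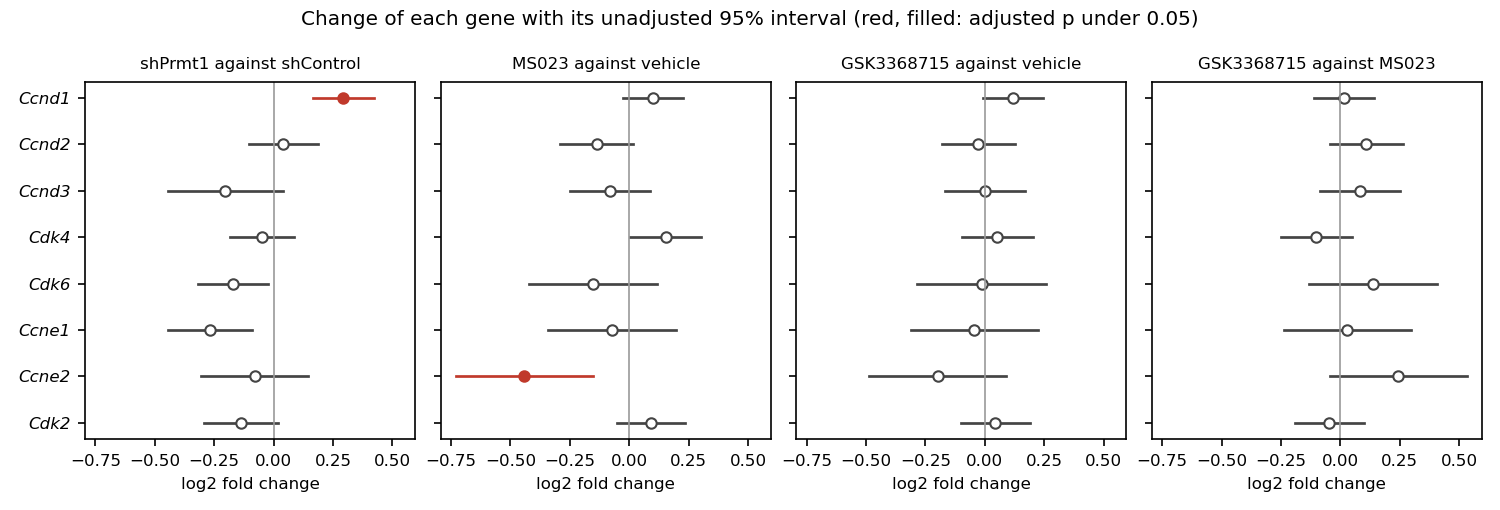
Log2 fold change (point) and unadjusted 95% interval (line) of the 8 genes in the 4 comparisons, from the limma fits; red filled symbols passed an adjusted p of 0.05. Ccnd1 in the knockdown (0.29) and Ccne2 with MS023 (-0.44) are the filled points, and the interval of Ccne1 in the knockdown lies below 0 without passing the adjustment.

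Ratios within a library do not depend on how libraries are scaled, and gene length cancels when ratios of 2 genes are compared between groups. Length does not cancel in the percent shares. By the longest coding transcript the mean share of Ccnd1 was 67.4% in shControl cells, against 75.5% by merged exons, and 62.7% against 71.5% with vehicle. Ccne1 with vehicle was at 48.5% against 45.1%. Ccnd1 made up 75.0%, 76.0% and 75.4% of the D cyclin counts per kb of merged exon in shControl cells and 79.6%, 79.2% and 78.1% in shPrmt1 cells. The Ccnd1 to Ccnd3 ratio was 1.41-fold higher in shPrmt1 cells and the Ccnd1 to Ccnd2 ratio 1.19-fold higher, without overlap (exact permutation test, two-sided, p = 0.1 each, the smallest that 3 against 3 libraries allow, 0.229 after adjustment over 16 ratio comparisons). With MS023 the share of Ccnd1 was 75.9%, 74.3% and 73.9%, against 70.0%, 73.5% and 71.1% with vehicle, and with GSK3368715 it was 75.0%, 71.9% and 73.6%. The MS023 libraries lay above vehicle in this share and the GSK3368715 libraries overlapped it. The Ccnd1 to Ccnd3 ratio lay above vehicle in every library of both inhibitors, 1.14-fold with MS023 and 1.08-fold with GSK3368715, while the Ccnd1 to Ccnd2 ratio did so with MS023 (1.18-fold) and overlapped with GSK3368715 (1.11-fold). For the ratios that did not overlap the exact permutation p was 0.1 and the adjusted value 0.229. As 0.1 is the smallest p possible, this test could not call any ratio. How often ratios of other gene pairs do not overlap was not tested. Of all single genes tested, 38.0% did not overlap in the knockdown, 44.5% with MS023, 27.7% with GSK3368715 and 21.4% between the inhibitors. The ratios with Ccnd1 use the same Ccnd1 counts, and both inhibitors were set against the same vehicle libraries. Among the E cyclins, Ccne1 took 51.1%, 50.8% and 52.5% of the counts per kb with MS023 and 47.6%, 43.8% and 43.9% with vehicle. The Ccne1 to Ccne2 ratio was 1.29-fold higher with MS023 than with vehicle and 0.862-fold with GSK3368715 relative to MS023, neither overlapping (exact permutation p = 0.1 each). The Cdk4 to Cdk6 ratio overlapped in all 4 comparisons.

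**Figure D5:**
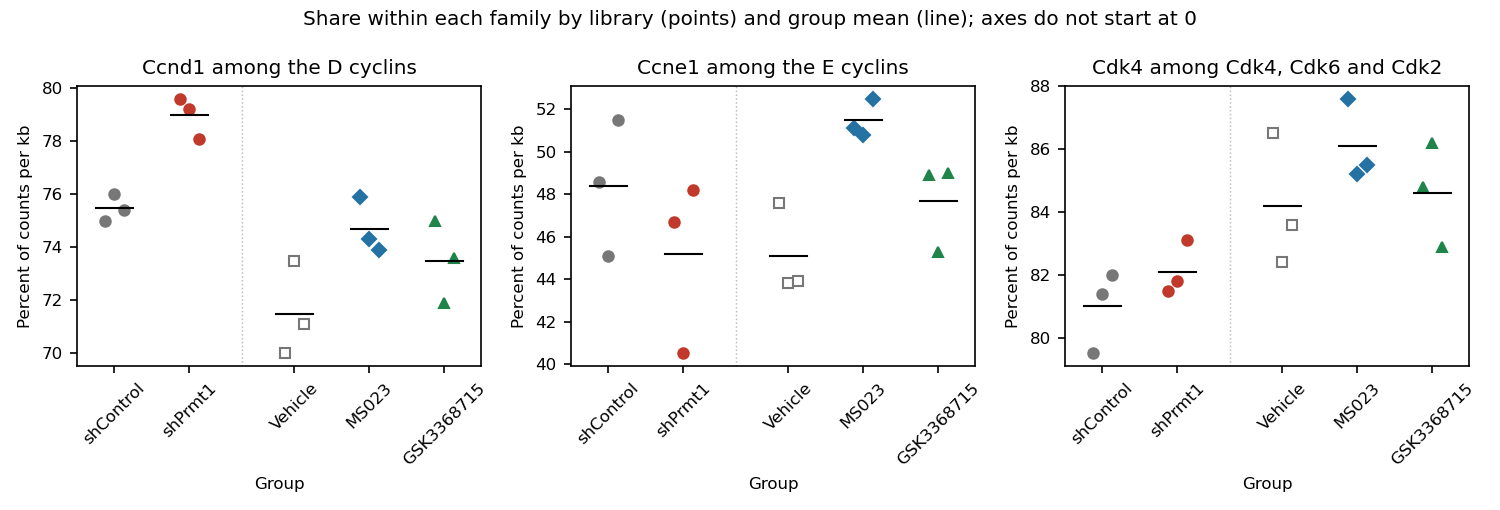
Share of Ccnd1 among the D cyclins, of Ccne1 among the E cyclins and of Cdk4 among Cdk4, Cdk6 and Cdk2, in percent of normalized counts per kb of merged exon, by library (points) and group mean (line). The shPrmt1 libraries lie at 78.1% to 79.6% for Ccnd1, above the 75.0% to 76.0% of shControl, and the MS023 libraries lie above vehicle for Ccnd1 and Ccne1.

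Around these 10 genes, other parts of the same pathway were read from lists. Each count of a list is set beside the share of all genes that limma called, which was 14.7% in the knockdown, 27.9% with MS023 and 9.64% with GSK3368715. In the same order edgeR called 14.9%, 27.8% and 9.54% of all genes, and DESeq2 called 18.7%, 30.9% and 13.8%. An unadjusted limma p under 0.05 was met by 26.1% of all genes with GSK3368715. That share is not given here for the knockdown or MS023, so such counts there have nothing to be set beside. Among the other CDK inhibitors, 1 of 4 tested was called in the knockdown, against 14.7% of all genes: Cdkn2d, the INK4 inhibitor INK4D, fell from 1154 ± 103 to 737 ± 63.5 normalized counts (log2 fold change -0.64, adjusted p = 0.00417 from limma). The other 3, Cdkn1a (0.19), Cdkn1b (0.10) and Cdkn2c (0.10), were not called. With either inhibitor limma, edgeR and DESeq2 each called 0 of 4. An unadjusted p under 0.05 was met by 2 with MS023 and by 1 with GSK3368715, where 26.1% of all genes met it with GSK3368715. Cdkn1b was above vehicle in every MS023 library (0.21, adjusted p = 0.0829) and every GSK3368715 library (0.22, adjusted p = 0.12). Cdkn2d with MS023 was at -0.15 (adjusted p = 0.0991).

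The next list held 8 genes of the CDK-activating kinase complex and of the kinases and phosphatases that act on CDKs. Of these, 2 were lower in the knockdown, 3 lower and 1 higher with MS023, and 1 lower with GSK3368715. In these comparisons 14.7%, 27.9% and 9.64% of all genes were called in either direction. Pkmyt1, a membrane-bound kinase that inhibits CDK1, was lower in all 3 comparisons (-0.79 in the knockdown, adjusted p = 0.00829; -0.70 with MS023, 0.000814; -0.49 with GSK3368715, 0.0152; limma). Cdc25c, a phosphatase that activates CDK1, fell in the knockdown (-0.50, adjusted p = 0.00756) and with MS023 (-0.41, 0.00217). Wee1, the nuclear kinase with the role of Pkmyt1, rose slightly with MS023 (0.20, adjusted p = 0.0344).

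Among 13 pocket proteins and E2F or DP factors, the targets of the G1 kinases and their partners, 0 were higher and 3 lower in the knockdown, where 14.7% of all genes were called. E2f1 went from 1315 ± 104 to 797 ± 144 normalized counts (-0.73, adjusted p = 0.00939 from limma) and E2f2 from 569 ± 18.9 to 415 ± 37.9 (-0.46, 0.0142). With MS023 2 were higher and 2 lower, near the 27.9% of all genes called: Rbl2, which encodes the pocket protein p130, rose (0.36, adjusted p = 0.00143), as did E2f6, a repressor (0.19, 0.0496), and E2f5 (-0.39, 0.00361) and E2f1 (-0.32, 0.00827) fell. With GSK3368715 1 was called, Rbl2, higher (0.24, adjusted p = 0.0284), near the share of 9.64% of all genes. Rb1 was not called in any comparison, at -0.06, -0.10 and -0.02.

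Of 11 tested genes for turnover of these proteins, 2 were higher and 0 lower in the knockdown, 3 higher and 1 lower with MS023, and 1 higher with GSK3368715, all near the shares of all genes (14.7%, 27.9% and 9.64%). Usp2, a deubiquitinase that acts on cyclin D1, was higher in all 3 comparisons, from 36.9 ± 5.46 to 75.3 ± 14.6 normalized counts in the knockdown (1.00, adjusted p = 0.0163 from limma), from 206 ± 20.3 to 309 ± 21.2 with MS023 (0.59, 0.00478) and to 284 ± 28.5 with GSK3368715 (0.46, 0.0354). Fbxw7, the receptor of the ligase that degrades cyclin E, rose in the knockdown (0.35, adjusted p = 0.0332) and with MS023 (0.17, 0.0474), and was at 0.12 with GSK3368715 (0.235). With MS023 Rbx1, the RING subunit of such ligases, rose (0.20, adjusted p = 0.0276) and Cks1b, a cofactor for the degradation of p27, fell (-0.20, 0.0095). Of the 5 tested cyclins of S, G2 and M phase and Cdk1, Ccnb2 alone was called by limma, lower with MS023 (-0.17, adjusted p = 0.0288), where 27.9% of all genes were called. In that comparison edgeR called 1 of 5 and DESeq2 called 2, where they called 27.8% and 30.9% of all genes. An unadjusted p under 0.05 was met by 3. In the knockdown limma and edgeR called 0 of 5 and DESeq2 called 1, where DESeq2 called 18.7% of all genes. There 1 had an unadjusted p under 0.05. With GSK3368715 all these counts were 0.

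A list named for mitogen and MYC inputs to the D cyclins, in which Id1, Id2 and Id3 were also placed, held 12 tested genes. Of these, 4 were higher and 1 lower in the knockdown, 3 higher and 3 lower with MS023, and 1 higher with GSK3368715. In these comparisons 14.7%, 27.9% and 9.64% of all genes were called. The Id genes were among the 4 in the knockdown and made up the 3 with MS023 and the 1 with GSK3368715. Whether mitogen or MYC input to the D cyclins changed was not tested. The inhibitors of helix-loop-helix factors Id1, Id2 and Id3 rose in the knockdown (0.64, adjusted p = 0.00447, 0.62, 0.00105, and 0.62, 0.0125; limma). With MS023 Id3 (0.86, adjusted p = 0.000346), Id1 (0.74, 0.00146) and Id2 (0.57, 0.0103) rose and the AP-1 genes Jun (-0.49, 0.000351) and Fosl1 (-0.40, 0.0075) fell. Myc was also lower with MS023 (-0.34, adjusted p = 0.0371 from limma). It was not called in the knockdown (0.15, 0.153) or with GSK3368715 (-0.25, 0.168). Fosl1 also fell in the knockdown (-0.62, adjusted p = 0.0376), and Id3 rose with GSK3368715 (0.43, 0.033), where Id1 (0.39, 0.0678) and Id2 (0.21, 0.358) were not called. Ccnd1 rose in the knockdown (0.29) and was not called with MS023 (0.10) or GSK3368715 (0.12). A link between the changes in this list and Ccnd1 was not tested, nor was a difference in Ccnd1 between the knockdown and the inhibitors.

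A list for the INK4 region held genes that silence or activate it, among them Polycomb genes, and also Mdm2 and Trp53, which act downstream of ARF. Of its 10 tested genes limma called only Mdm2. It was higher in the knockdown (0.38, adjusted p = 0.00569 from limma) and with MS023 (0.17, 0.0419), where 14.7% and 27.9% of all genes were called. In each of these comparisons edgeR called 1 of 10 and DESeq2 called 2. Of all genes, edgeR called 14.9% in the knockdown and 27.8% with MS023, and DESeq2 called 18.7% and 30.9%. Mdm2 is a p53 target whose product ARF binds. With GSK3368715 limma, edgeR and DESeq2 called 0 of 10, and 0 had an unadjusted p under 0.05. Among 26 tested cyclins and CDKs outside the core cycle, 2 were higher and 2 lower in the knockdown, 2 higher and 4 lower with MS023, and 2 higher and 0 lower with GSK3368715, all near the shares of all genes (14.7%, 27.9% and 9.64%). Ccng1, a p53 target, rose (0.54, adjusted p = 0.0167) and Ccng2 fell (-0.78, 0.00184) in the knockdown, where Cdk5r1 rose (0.65, 0.0464) and Cdk16 fell (-0.64, 0.00656). Cdk18 and Cdk19 rose with MS023 (0.45, 0.00149 and 0.35, 0.00398) and with GSK3368715 (0.35, 0.0156 and 0.27, 0.0312), and Ccnc (-0.28, 0.00527) and Cdk17 (-0.25, 0.0137) fell with MS023. The medians of the 8 lists ran from -0.08 to 0.16 in the knockdown and from -0.13 to 0.06 with MS023, against medians of all genes of -0.0036 and 0.0028. Between the inhibitors limma and edgeR called 0 genes of the 8 lists. DESeq2 called 2, both in the mitogen and MYC list, where it called 2.8% of all genes. From 0 to 4 genes a list had an unadjusted p under 0.05, where 13.2% of all genes did.

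Over the 9 inhibitor libraries, the genes whose deviations from vehicle were closest to those of Ccne2 were Cd14, a lipopolysaccharide co-receptor, and the zinc finger gene Zfp738, with root mean square differences of 0.0888 and 0.0921 on the log2 scale among the 11254 genes whose mean reached 50 normalized counts. Their changes were -0.40 and -0.49 with MS023 and -0.20 and -0.15 with GSK3368715. Both genes were picked for closeness in these same libraries, so changes like those of Ccne2 follow from the choice. How close the nearest genes of other genes lie was not tested.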

How the data were processed

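The authors quantified paired-end RNA reads with Salmon 1.4.0 on mm10 and deposited, per gene and library, a signal that is the gene count divided by a DESeq2 size factor (the DESeq2 version is not given in the sources used here). Whole reads were recovered from these values for 100% of entries, within 0.001 of a whole number. The authors' 3 comparison tables hold fold changes and p-values and were not used. Genes that reached 10 normalized counts in 3 or more of a fit's libraries entered the test, limma 3.58.1 (R 4.3.3) run on log2(normalized count + 1), two-sided, with a trended prior and Benjamini-Hochberg adjustment over all genes tested, at 0.05; on this scale changes of genes with few reads are understated. The 6 knockdown libraries formed a fit, and the 9 inhibitor libraries another. Both passed a test on simulated counts, in which the changes were larger than those of any member and the spread was set alike for every gene. That test does not cover changes as small as those of the members. It simulated only shPrmt1 against shControl and MS023 against vehicle, and a pass allowed a share of false calls above 0.05. Intervals around differences are unadjusted 95% intervals, and a floor of 3 reads covers counting error only. IDs were matched to the GENCODE annotation of mm10 for 34372 of 34432 genes.

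The members and lists were chosen with earlier results of these data known. Named genes are the 10 members, Prmt1, the genes around Cdkn2a, overlapping genes, and the 2 genes closest to a member called with an inhibitor. From each list, up to 2 genes called higher and 2 called lower with the largest change in each comparison with a control are also named. The CDK inhibitors and Rb1 that were not called, and the values of Id genes, Myc and Fbxw7 beyond that rule, were named after their values were seen. Skp1a, in the turnover list, had no entry under that symbol. As alternatives, the pseudocount was set to 0.5 or 5, the filter was dropped or raised to 50, and the fits were repeated with upper quartile or total rescaling, no trend, the replicate number as a block, edgeR 4.0.16 and DESeq2 1.42.0 on recovered reads, with only the groups compared, and without each library. Length as the longest coding transcript was added after seeing the data. Same-numbered knockdown libraries correlated at 0.061, 0.116 and 0.081 after group means were removed, against -0.094 to 0.033 for libraries of different number. The labels do not state a pairing, so the main fit left the numbers out and a block by number was an alternative.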

Additional observations from a re-analysis of the deposited data

How the results depend on the processing

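Of the log2 fold changes of single members, 335 of 344 values under settings that kept all libraries held their direction and side of the threshold (2 reversed, 2 lost a call, 5 gained one). With a library left out 238 of 264 values did so (17 reversed, 7 lost a call, 2 gained one). Most of these changes were uncalled in the main fit and had no call to lose. Only Ccnd1 in the knockdown and Ccne2 with MS023 had a call, and all 7 calls lost with a library left out were theirs. Over all alternative settings Ccnd1 kept its call in 13 of 16 and Ccne2 in 14 of 20. The counts of genes called also moved. In the knockdown 1684 genes were called, 2671 under the replicate block, and 652 to 2472 with a library left out, the lowest without shControl 1 and the highest without shPrmt1 2 (883 without shControl 2, 723 without shControl 3 and 1072 without shPrmt1 3). Of the members 1 was called, against 2 with a filter of 50 counts and 2 by DESeq2, where 15.8% and 18.7% of all genes were called. With the replicate block 4 were called, beside 23.3% of all genes. These were Ccnd1, higher, and Ccne1, Ccnd3 and Cdk6, lower at adjusted p = 0.0237, 0.0459 and 0.0483 from limma. With a library left out 0 to 3 were called, beside 5.72% to 21.7% of all genes. Every knockdown library correlated best with its own replicate number, a hint from the data and not from the design; the numbers did not pair the inhibitor libraries (r from -0.102 to 0.113). With MS023 3625 genes were called, 2409 (without MS023 2) to 3726 with a library left out, and of the members 1, with 0 when the prior had no trend (Ccne2, adjusted p = 0.0663), 0 under the block (0.0514) and 0 to 1 with a library left out. With GSK3368715 1254 genes were called, 597 in a fit of those 2 groups alone, and 586 (without vehicle 3) to 1274 with a library left out (757 without GSK3368715 1 and 778 without GSK3368715 3). Between the inhibitors 67 genes were called, 38 without the filter, 8 without the trend, 4 under the block, 365 by DESeq2 and 2 to 114 with a library left out. In these last 2 comparisons 0 members were called under every setting run. Rescaling to total reads turned the split of calls to 1082 higher and 666 lower in the knockdown (861 and 823 as reported) and to 2200 and 1509 with MS023 (1784 and 1841); with GSK3368715 it was 747 and 496 (672 and 582), and between the inhibitors 22 and 25 (41 and 26). The same rescaling turned Cdk6 with GSK3368715 to 0.0012 and Ccnd1 between the inhibitors to -0.0038, both near 0. Changes whose sign turned with a library left out were all uncalled, and ran for the knockdown from -0.00014 to 0.076 (Ccnd2), for MS023 from -0.15 to 0.039 (Ccne1), for GSK3368715 from -0.073 to 0.030 (Ccnd2), -0.043 to 0.086 (Ccnd3), -0.13 to 0.070 (Ccne1), -0.0027 to 0.11 (Cdk2) and -0.14 to 0.12 (Cdk6), and between the inhibitors from -0.012 to 0.059 (Ccnd1), -0.055 to 0.14 (Ccne1) and -0.093 to 0.017 (Cdk2). The causes were not tested. Depth limits statements on Cdkn2a and Cdkn2b to the floor of 3 reads.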
